A study of Mus musculus with 6 samples.

Results

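The Kruppel-like factors are a family of transcription factors, and 9 of their genes, Klf2, Klf3, Klf4, Klf6, Klf7, Klf10, Klf11, Klf12 and Klf13, were followed in cultured effector CD8+ T (Teff) cells with and without Scd-1, the stearoyl-CoA desaturase that makes monounsaturated fatty acids. Members were the rows whose gene symbol matched this list in all 6 deposited tables, and all 9 were found among 34745 genes. Of these, 6 had a mean of at least 1 FPKM (fragments per kilobase of gene, scaled to the total of the library) and were tested among 9627 genes, while Klf3, Klf4 and Klf12 lay under that minimum and took their values from a second fit, to the 17192 genes that had any count. The question was whether the levels of these factors differ between Scd-1-/- and WT Teff cells.

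The Scd-1-/- group held 3 libraries from B6.129-Scd1tm1Ntam/J mice, in which the gene is disrupted in the germline, so every cell of the donor mice lacked it and not only the T cells. The WT group held 3 libraries from C57BL/6J mice. In both groups the donors were male mice of 6 to 8 weeks, splenic CD8+ T cells were enriched with a negative selection kit, and the cells were cultured with anti-CD3 (5 μg/mL), anti-CD28 (0.5 μg/mL) and IL-2 (100 U/mL) for 3 days and with IL-2 for 3 more, and were harvested on day 6. Replicates were numbered 1 to 3 in each genotype, and the labels do not say whether they came from separate mice or cultures, so p-values measure only the spread between these libraries.

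All Kruppel-like factors carry 3 zinc fingers at the C-terminal end, through which they bind GC-rich elements of the GGGCGG or CACCC kind, and differ in the rest of the protein, which recruits activators or repressors. In T cells Klf2 is the best known of them: it is high in resting cells, where it keeps up the genes for exit into blood and homing to lymph nodes, and is shut down by strong stimulation through PI3K, Akt and the exclusion of Foxo1 from the nucleus. Klf4 is known as a brake on CD8+ T cell division, Klf10 and Klf11 as genes induced early by TGF-beta, Klf13 as an activator of the chemokine gene Ccl5, and Klf3 and Klf12 as repressors that bind the corepressor CtBP.

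To show how close the members are at the DNA level, the coding bases of the last zinc finger are given for 5 of them, 5′ to 3′ on the coding strand, with the codons of the 2 cysteines and 2 histidines that hold the zinc ion in capitals (GENCODE transcripts, GRCm38). They lie at chr8:72320851-72320913 (plus strand) for Klf2, chr4:55528131-55528193 (minus strand) for Klf4, chr15:38295995-38296057 (minus strand) for Klf10, chr12:24660290-24660352 (plus strand) for Klf11 and chr7:63891628-63891690 (minus strand) for Klf13, each within 1 coding exon.
Klf2: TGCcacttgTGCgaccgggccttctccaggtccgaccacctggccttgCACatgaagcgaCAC
Klf4: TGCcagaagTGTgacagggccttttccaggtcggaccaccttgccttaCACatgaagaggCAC
Klf10: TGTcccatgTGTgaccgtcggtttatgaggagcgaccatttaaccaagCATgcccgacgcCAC
Klf11: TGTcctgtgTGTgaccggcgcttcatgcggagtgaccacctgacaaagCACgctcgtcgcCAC
Klf13: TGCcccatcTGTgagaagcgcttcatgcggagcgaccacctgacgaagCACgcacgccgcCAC
Over the 243 bases that span all 3 fingers, the 36 pairs of members were identical at 58.8% to 81.1% of positions, with Klf6 and Klf7 most alike, 78.2% for Klf2 and Klf4 and 76.1% for Klf10 and Klf11. The longest run of identical bases between transcripts was 26 (Klf6 and Klf7) among the 6 tested members and 41 (Klf3 and Klf12) among all 9. Annotated genes overlap Klf3, Klf7, Klf12 and Klf13, and the 7 of them that were in the tables had between 0 and 6 counts in every library. The kits named by the labels and by the methods differ, so it is not known here whether the counting used strand.

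The stretch of DNA before the start site is shown for Klf2 and Klf11, the tested members with the greatest excess in replicate 1, and for Klf6 and Klf13, whose genotype difference had the same direction in every replicate number. RefSeq windows (GRCm38.p6, from 250 bases before the start) were matched for 8 of the 9 members, Klf10 being the exception, and are printed 5′ to 3′ on the strand of the gene up to the first annotated exon, with matches to GGGCGG, to CACCC and to the MEF2 element, on either strand, in capitals. The printed parts are chr8:72318812-72319032 (plus strand) for Klf2, chr12:24651121-24651273 (plus strand) for Klf11, chr13:5861239-5861481 (plus strand) for Klf6 and chr7:63938916-63939165 (minus strand) for Klf13.
Klf2: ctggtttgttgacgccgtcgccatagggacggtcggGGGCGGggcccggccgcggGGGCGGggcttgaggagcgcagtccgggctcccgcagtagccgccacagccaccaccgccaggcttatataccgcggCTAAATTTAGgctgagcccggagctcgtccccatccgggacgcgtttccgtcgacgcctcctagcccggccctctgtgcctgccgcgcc
Klf11: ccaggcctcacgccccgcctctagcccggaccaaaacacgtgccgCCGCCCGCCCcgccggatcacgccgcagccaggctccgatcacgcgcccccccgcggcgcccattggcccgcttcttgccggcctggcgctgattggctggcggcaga
Klf6: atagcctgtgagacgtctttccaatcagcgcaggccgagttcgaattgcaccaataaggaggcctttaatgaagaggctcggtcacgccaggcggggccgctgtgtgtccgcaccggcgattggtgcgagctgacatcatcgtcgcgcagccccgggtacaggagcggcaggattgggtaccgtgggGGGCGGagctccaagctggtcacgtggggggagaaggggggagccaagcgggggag
Klf13: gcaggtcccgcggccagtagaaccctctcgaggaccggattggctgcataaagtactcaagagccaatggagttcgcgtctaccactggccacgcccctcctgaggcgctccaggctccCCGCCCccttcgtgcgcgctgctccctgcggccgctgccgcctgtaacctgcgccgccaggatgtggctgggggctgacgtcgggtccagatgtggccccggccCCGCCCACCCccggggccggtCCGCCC
In Klf11 the capitals are 2 overlapping matches to GGGCGG, and in Klf13 the match to CACCC overlaps one to GGGCGG. Over whole windows of 300 bases, GGGCGG was found in 7 of the 8 members and in 35.7% of all 32851 windows, and CACCC in 5 of the 8 and in 57.5%. The 7 windows with GGGCGG were 58.3% to 77.7% GC and that of Klf12, without it, 45.7%, against a median of 52.7% over all windows. The share was not set against windows of like GC content. The MEF2 element, the site of the MEF2 factors that act on Klf2 downstream of the kinase Erk5, was found in Klf2 alone of the 8, at positions -118 to -109 from the RefSeq start, and in 0.557% of all windows. The Foxo1 motif GTAAACA was in 0 of the 8 (3.65% of all windows) and the CArG box of serum response factor in 0 of the 8 (1.63%). A match is a description of these letters only.

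The libraries held 14034479 to 15866216 counted reads. Scd1 had 3074 to 4272 counts in WT and 20 to 36 in Scd-1-/- libraries, in the direction of the labels. The 7 CD8+ T cell markers summed to 1903 to 2396 FPKM in WT and 1855 to 2132 in Scd-1-/- libraries. Defining markers of other cells were at 0 in every library (Ms4a1 and Pax5 of B cells, Adgre1 and S100a9 of myeloid cells, Alas2 of red cells, Cdh5 of endothelium), but other genes of each of these lists were not. The 8 B cell markers summed to 147 to 270 FPKM in WT and 98.2 to 148 in Scd-1-/- libraries, and both tested ones had an adjusted p under 0.05 with the replicate block, downward. The 10 myeloid markers summed to 68.6 to 83.9 FPKM in WT and 93.1 to 113 in Scd-1-/- libraries, with 0 of 3 tested ones past the thresholds (2 upward with the block). The 6 endothelial and stromal markers summed to 7.30 to 7.48 FPKM in WT and 4.15 to 5.28 in Scd-1-/- libraries, with the 1 tested gene at an adjusted p under 0.05 with the block, downward, and the 8 red cell markers to 0.560 to 0.997 and 0.962 to 3.29 FPKM. Of the NK cell markers, 2 of 5 tested genes passed the thresholds upward (4 with the replicate block, 3 without either replicate 1, and 1 without replicate 2 or 3 of either genotype) and that list of 8 summed to 297 to 452 FPKM in WT and 602 to 635 in Scd-1-/- libraries. The list includes Eomes, which the study reported as higher in Scd-1-/- Teff cells by RNA and flow cytometry, so its sum is not a measure of NK cells alone. Mitochondrial genes took 1.66% to 1.78% of counts in WT and 2.25% to 3.20% in Scd-1-/- libraries. Replicate 1 of both genotypes stood apart from replicates 2 and 3 on the first principal component of log2 CPM (counts scaled to the total of the library), which held 42.9% of the variance, and had more genes with a count (14971 and 14828, against 14268 to 14576). In bulk RNA, fewer cells of a type and less RNA per cell cannot be told apart.

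Klf2, Klf6 and Klf13 were the most abundant members and together made up 82.9% to 86.9% of the summed FPKM of the 9 genes. In WT libraries the mean level was 33.2 ± 32.2 FPKM (SD, n = 3) for Klf2, 29.1 ± 6.84 for Klf6 and 24.5 ± 7.24 for Klf13, followed by Klf10 at 10.3 ± 5.01, Klf11 at 4.22 ± 4.35 and Klf7 at 1.44 ± 0.356. In Scd-1-/- libraries the order of these 6 was the same, at 40.6 ± 24.4 FPKM for Klf2, 33.8 ± 4.78 for Klf6, 18.6 ± 6.06 for Klf13, 10.6 ± 4.38 for Klf10, 3.80 ± 3.38 for Klf11 and 1.85 ± 1.29 for Klf7. Between these neighbours the ranges of the libraries overlapped except for Klf13 over Klf10 in WT and Klf6 over Klf13 in Scd-1-/- libraries. Klf4 (0.371 and 0.232 FPKM in WT and Scd-1-/-), Klf3 (0.330 and 0.292) and Klf12 (0.0252 and 0.0695) followed far below Klf7, with no overlap to it. This order, and the shares of the summed FPKM, rest on the gene lengths behind the FPKM. For some members, Klf13 and Klf3 among them, these differ from the longest transcript.

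**Figure D1:**
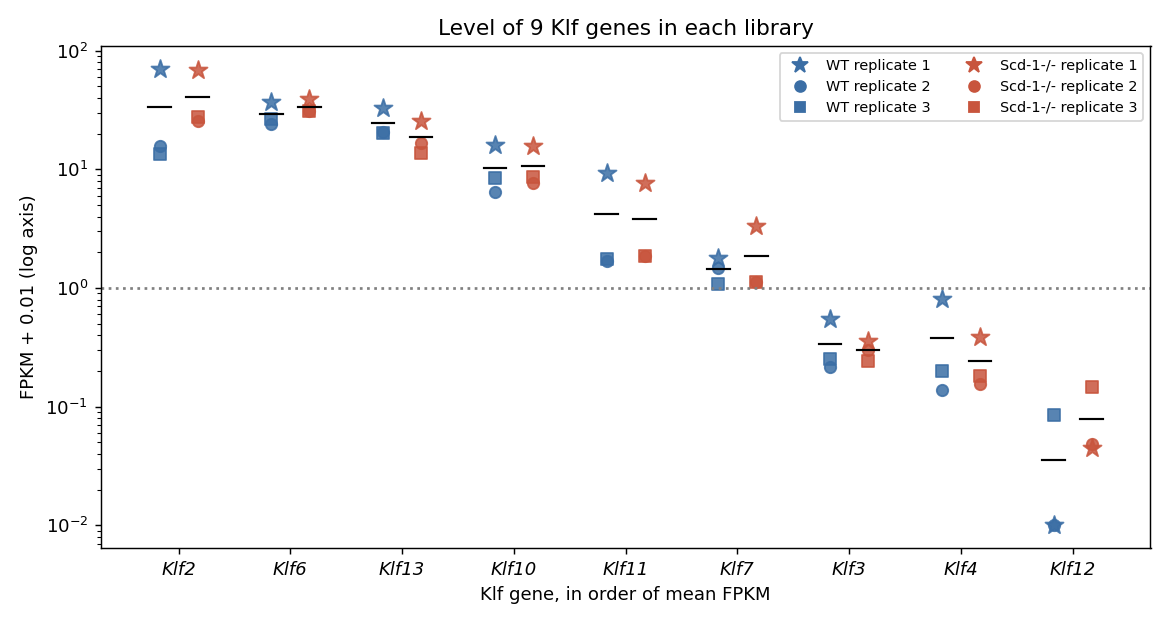
FPKM plus 0.01 on a log axis for the 9 Klf genes in order of their mean, with 1 point per library (blue WT, red Scd-1-/-, stars replicate 1), black lines at the group means and a dotted line at the minimum of 1 FPKM. Replicate 1 is the highest library of its genotype in 8 of the 9 genes, the exception being Klf12, and the genotypes overlap in all 9.

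The leading member changed with the replicate number. In replicate 1 of both genotypes Klf2 came first, with 41.8% (WT) and 42.7% (Scd-1-/-) of the summed FPKM of the 9 genes, ahead of Klf6 and Klf13. In WT replicates 2 and 3 Klf2 held 22.5% and 18.7% and came behind Klf6 and Klf13. In Scd-1-/- replicates 2 and 3 it held 30.5% and 32.5% and came behind Klf6 and ahead of Klf13. The summed level was 169 and 161 FPKM in replicate 1 of WT and Scd-1-/-, and 70.2 to 84.7 FPKM in the other 4 libraries.

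**Figure D2:**
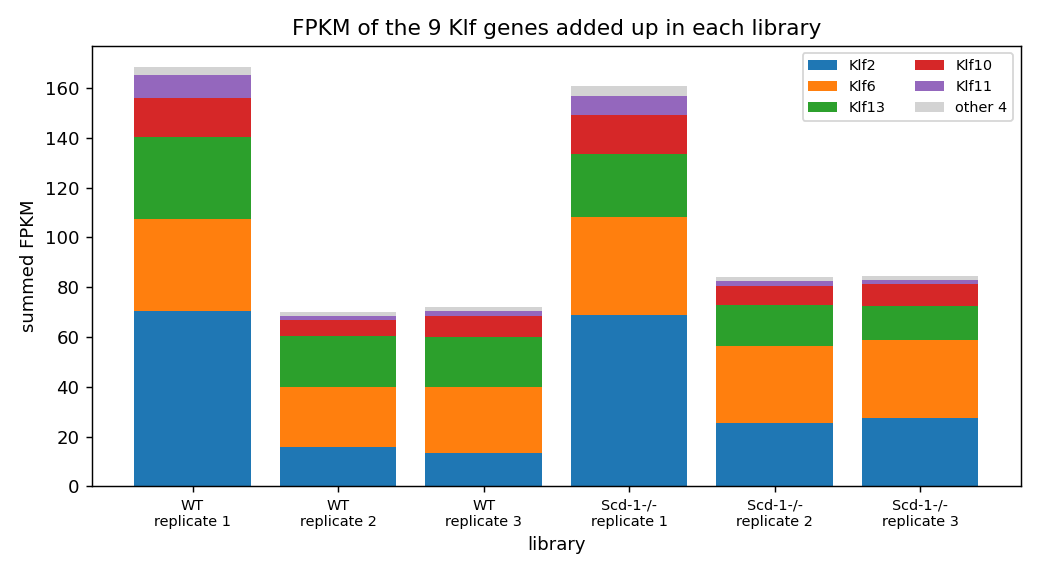
Summed FPKM of the 9 Klf genes in each of the 6 libraries, stacked by gene (Klf3, Klf4, Klf7 and Klf12 together in grey). Replicate 1 of each genotype reaches 169 and 161 FPKM against 70.2 to 84.7 in the others, and the Klf2 part is the one that shrinks most.

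In the comparison of genotypes, 0 of the 6 tested members passed the thresholds of the study (an absolute log2 fold change of at least 1 and an unadjusted p under 0.001), which 0.738% of all tested genes did. By edgeR's quasi-likelihood test 0 of 6 had an adjusted p under 0.05 (0.114% of all genes) and 0 of 6 an unadjusted p under 0.05 (10.1%), and on these 3 counts DESeq2 gave 0 of 6 (1.67%, 2.76% and 11.1% of all genes) and limma on log2 (FPKM + 1) also 0 of 6 (0.582%, 0.177% and 10.4%). The 3 members with low counts did not pass either (0.861% of the 17192 genes did). No tested member had groups that did not overlap, against 16.1% of all tested genes. The median log2 fold change of the 6 was 0.15 and that of all tested genes -0.000506.

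Within replicate numbers the picture was tighter. Samples with the same number deviated together, though only number 1 was clearly set apart, so the fit was repeated with the number as a block. The median standard error of the 6 log2 fold changes then fell from 0.43 to 0.15, and over all tested genes from 0.21 to 0.14. With the block 0 of 6 members passed the thresholds (1.91% of all genes) or had an adjusted p under 0.05 (4.7%), and Klf2, Klf6 and Klf13 had an unadjusted p under 0.05 (22.4%). In replicates 2 and 3 alone, 0 of 6 passed the thresholds (3.83%), 1 of 6, Klf2, had an adjusted p under 0.05 (12.6%; 2 of 9, Klf2 and Klf13, against 13.9% with no FPKM minimum), and the groups of Klf2, Klf6, Klf11 and Klf13 did not overlap (59.8%). With 1 library left out, the groups of 3 of 6 did not overlap without WT replicate 1 (38%), those of 1 of 6, Klf13, without Scd-1-/- replicate 1 (38%), and those of 0 of 6 in the others (20.7% and 22.6% without WT replicate 2 or 3, 21.7% and 19.4% without Scd-1-/- replicate 2 or 3). Klf6 and Klf13 kept 1 direction in all 3 replicate numbers, as 45% of tested genes did.

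**Figure D3:**
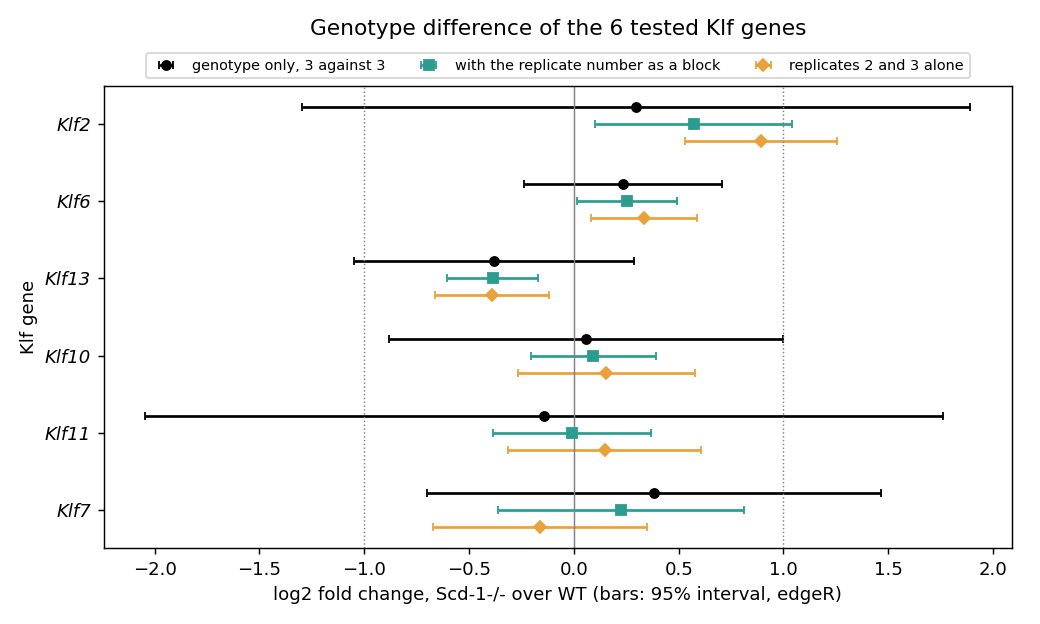
Log2 fold change of Scd-1-/- over WT for the 6 tested Klf genes with 95% intervals from edgeR, in the fit without a block (black), with the replicate number as a block (green) and in replicates 2 and 3 alone (orange); dotted lines mark an absolute value of 1. Without the block every interval includes 0, and with it those of Klf2, Klf6 and Klf13 do not.

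Klf2 (chr8:72319033-72321656, GRCm38, plus strand), the factor of T cell quiescence and circulation, had 70.5, 15.8 and 13.5 FPKM in WT replicates 1, 2 and 3 and 68.8, 25.6 and 27.5 FPKM in Scd-1-/- replicates 1, 2 and 3. Replicate 1 was high in both genotypes, and the knockout libraries lay above WT in replicates 2 and 3 and level with it in replicate 1. The counts behind these values were 1974, 410 and 354 in WT and 1979, 667 and 806 in Scd-1-/- libraries. In CPM, the ratio of Scd-1-/- to WT was 0.975, 1.63 and 2.13 in replicate numbers 1, 2 and 3. Without the block the log2 fold change came to 0.30, with a standard error of 0.69, a 95% interval of -1.30 to 1.89 and an adjusted p of 0.931, and with it to 0.57, with a standard error of 0.20, an interval of 0.10 to 1.04 and an adjusted p of 0.151. In replicates 2 and 3 alone, 2 libraries against 2, it was 0.89 (standard error 0.16, adjusted p = 0.00850), higher in both knockout libraries. The value rested on single libraries: it was -0.32 without Scd-1-/- replicate 1, -0.04 without WT replicate 2, -0.09 without WT replicate 3 and 1.51 without WT replicate 1. Whether the genotype difference of Klf2 differs between replicate numbers was not tested.

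Klf4 (chr4:55527143-55532466, minus strand), a relative of Klf2 and a brake on cell division, was low in all libraries. It had 53, 8 and 12 counts in WT replicates 1, 2 and 3 and 26, 9 and 12 counts in Scd-1-/- replicates 1, 2 and 3. Replicate 1 was again the highest of each genotype, and replicates 2 and 3 had nearly the same counts in both. Its log2 fold change of -0.66 had a standard error of 0.70 and an adjusted p of 0.770 over 17192 genes, and came to -0.44 with the block and to 0.55 without WT replicate 1.

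Klf6 (chr13:5861482-5870394, plus strand), a widely expressed member known as a tumour suppressor and as a gene quickly induced by stimulation, had 36.9, 24.0 and 26.5 FPKM in WT replicates 1, 2 and 3. In Scd-1-/- replicates 1, 2 and 3 it had 39.3, 30.8 and 31.3 FPKM. The knockout library was the higher one in each replicate number, by ratios of 1.06, 1.29 and 1.23 in CPM, and the groups overlapped, with WT replicate 1 above the knockout replicates 2 and 3. On the log2 scale the difference was 0.23 with a standard error of 0.20 (adjusted p = 0.790) and with the block 0.25 with a standard error of 0.10 (adjusted p = 0.203), and it stayed positive when any 1 library was left out (0.11 to 0.46).

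Klf7 (chr1:64029447-64122282, minus strand), the nearest relative of Klf6, known chiefly from neurons, had 1.78, 1.47 and 1.07 FPKM in WT and 3.33, 1.11 and 1.11 FPKM in Scd-1-/- replicates 1, 2 and 3. Scd-1-/- replicate 1 was the high library and the other 2 knockout libraries lay within the WT range. A log2 fold change of 0.38 with a standard error of 0.47 (adjusted p = 0.865) turned to -0.36 without Scd-1-/- replicate 1.

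Klf10 (chr15:38291463-38300706, minus strand) had 15.98, 6.46 and 8.52 FPKM in WT and 15.7, 7.61 and 8.61 FPKM in Scd-1-/- replicates 1, 2 and 3. Within a replicate number the genotypes differed by at most a ratio of 1.19 in CPM, less than the spread between replicates. On the log2 scale Klf10 differed by 0.06 (standard error 0.40) without the block and by 0.09 (standard error 0.13, interval -0.21 to 0.39, adjusted p = 0.709) with it, and the value lay between -0.33 without Scd-1-/- replicate 1 and 0.55 without WT replicate 1.

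Klf11 (chr12:24651274-24662789, plus strand), the other TGF-beta early gene, had 9.24, 1.69 and 1.74 FPKM in WT and 7.71, 1.84 and 1.86 FPKM in Scd-1-/- replicates 1, 2 and 3. It was high in replicate 1 of both genotypes and low in the other 4 libraries, with a small gap between genotypes in each number. Its log2 fold change was -0.14 with a standard error of 0.82, the largest of the 6, and -0.01 (standard error 0.16, interval -0.39 to 0.37, adjusted p = 0.981) with the block. Without WT replicate 1 it was 1.19 and without Scd-1-/- replicate 1 it was -1.19, with adjusted p of 0.433 and 0.492.

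Klf13 (chr7:63886351-63938915, minus strand), the activator of Ccl5 in T cells, had 32.9, 20.5 and 20.2 FPKM in WT replicates 1, 2 and 3. In Scd-1-/- replicates 1, 2 and 3 it had 25.4, 16.5 and 13.8 FPKM. The knockout library was the lower one in each replicate number, at ratios of 0.771, 0.812 and 0.715 in CPM, while knockout replicate 1 lay above WT replicates 2 and 3. Klf13 differed by -0.38 on the log2 scale (standard error 0.29, adjusted p = 0.735) and with the block by -0.39 (standard error 0.09, interval -0.60 to -0.17, unadjusted p = 0.00349, adjusted p = 0.0590), and it stayed negative when any 1 library was left out (-0.68 to -0.09). Its target Ccl5, which encodes a chemokine of effector T cells, went the other way in level, with 234, 45.8 and 38.0 FPKM in WT and 399, 181 and 185 FPKM in Scd-1-/- libraries. Ccl5 missed the thresholds at a log2 fold change of 1.27 (adjusted p = 0.614) and passed them with the block (1.69, adjusted p = 0.0182) or without WT replicate 1 (2.65), the 1 of 6 fits with a library left out in which it did, at values from 0.79 (without Scd-1-/- replicate 1) to 2.65.

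The repressors Klf3 (chr5:64803388-64832901, plus strand) and Klf12 (chr14:99870632-100284679, minus strand) lay under the FPKM minimum, and Klf12 was barely measured. Klf3 had 120, 42 and 50 counts in WT and 79, 60 and 54 counts in Scd-1-/- replicates 1, 2 and 3. Its log2 fold change, -0.17 with a standard error of 0.40 and an adjusted p of 0.919 over 17192 genes, turned to 0.41 without WT replicate 1. Its FPKM rests on a length of 14555 bases, as the counts and totals imply, against 5221 bases for its longest GENCODE transcript, which lowers its level beside the other genes. The same lengths were 1856 against 5890 bases for Klf12, which raises its level. They were 8416 against 6396 bases for Klf13 and 4410 against 3029 bases for Klf4, which lowers theirs. Klf12 had 0, 0 and 2 counts in WT and 1, 1 and 4 counts in Scd-1-/- replicates 1, 2 and 3. With at most 4 counts a difference in Klf12 was not detectable at this depth, where 3 counts correspond to about 0.189 to 0.214 CPM.

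The difference between replicate 1 and the other replicates was larger in this family than the difference between genotypes. In log2 CPM, averaged over the genotypes, replicate 1 lay above the mean of replicates 2 and 3 by 2.26 for Klf11, 1.85 for Klf2, 1.07 for Klf7, 1.05 for Klf10, 0.75 for Klf13 and 0.47 for Klf6, with a median of 1.06 over the 6 members and 0.02 over all tested genes. Replicate 1 was the highest library of both genotypes in 6 of the 6 members and in 30.2% of tested genes, and the difference was at least 1 in each genotype for Klf2 and Klf11 and for 2.21% of tested genes. Klf11 ranked 24 and Klf2 ranked 63 of 9627 genes by this difference. In a test of the replicate number as a factor of 3 levels beside genotype, chosen after the libraries were seen to stand apart, 5 of 6 members had an adjusted p under 0.05 (15.9% of all tested genes).

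By that test the adjusted p was 0.00197 for Klf11, 0.00654 for Klf2, 0.00859 for Klf10, 0.00899 for Klf13, 0.0482 for Klf6 and 0.0514 for Klf7. The labels do not say what the number stands for, so it is not called a batch. The CD8+ T cell markers moved with it, summing to 2396 and 2132 FPKM in replicate 1 and to 1855 to 1942 in the others, and so did the B cell markers, at 270 and 148 FPKM in replicate 1 of WT and Scd-1-/- and 98.2 to 192 in the others (both tested ones highest there in each genotype), and so did the number of genes with a count. The 5 CD4+ T cell markers moved the other way, at 124 and 129 FPKM in replicate 1 and 143 to 150 in the others, with Cd4 itself at no more than 0.345 FPKM. The part of these measures in the result was not tested.

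**Figure D4:**
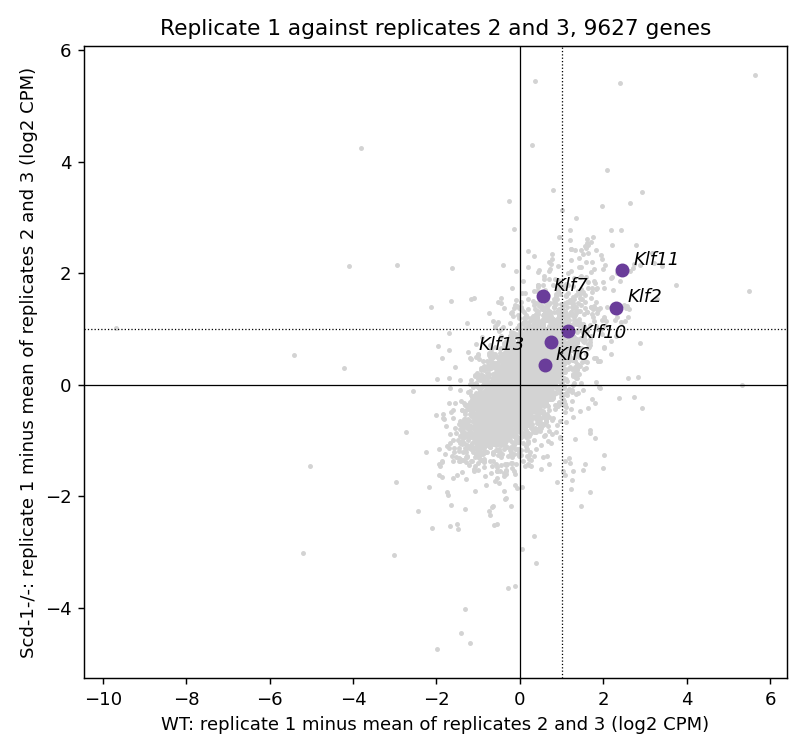
Difference between replicate 1 and the mean of replicates 2 and 3, in log2 CPM, in WT libraries (x axis) and Scd-1-/- libraries (y axis) for 9627 tested genes (grey), with the 6 tested Klf genes in purple and dotted lines at 1. All 6 Klf genes lie above 0 on both axes, Klf11 and Klf2 above 1 on both.

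Outside the 9 members, the related genes of the Klf and Sp families held 5 tested genes of 18 on the list, and 0 of 5 passed the thresholds. Klf16, a GC-box binding member, had levels in the range of Klf13, at 28.7, 23.2 and 20.4 FPKM in WT and 25.8, 19.9 and 17.1 FPKM in Scd-1-/- replicates 1, 2 and 3. Sp2 had 13.7, 7.71 and 7.99 FPKM in WT and 13.2, 7.25 and 6.89 FPKM in Scd-1-/- libraries, and both genes were highest in replicate 1 of each genotype. Sp1, the founder of the Sp group, named after its values were seen, had 7.07 to 9.24 FPKM in 5 libraries and 0.348 FPKM in Scd-1-/- replicate 2. Klf14, Klf17 and Sp5 were at 0 in all 6 libraries.

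Among regulators upstream of Klf2 (Foxo, MEF2, Erk5 and PI3K pathway genes), 0 of 12 tested genes passed the thresholds in the edgeR fit without a block. With DESeq2 1 gene of the list passed, and with no FPKM minimum also 1. Akt1 and Pik3cd, kinases of the pathway that shuts Klf2 down, were the most abundant, with log2 fold changes of -0.01 and -0.26. Sgk1, a kinase that inactivates Foxo1 and is named here after its values were seen, had 3.30, 2.00 and 2.05 FPKM in WT and 4.44, 5.38 and 5.27 FPKM in Scd-1-/- replicates 1, 2 and 3. Its groups did not overlap, and its log2 fold change, 1.05 with a standard error of 0.24 and an adjusted p of 0.176, missed the thresholds. It passed them with the block (1.09, adjusted p = 0.0326) and in replicates 2 and 3 alone (1.43, adjusted p = 0.000489). With 1 library left out (0.92 to 1.35) it passed in 1 of 6 fits, without WT replicate 1 (1.35). Among 8 tested genes of the ubiquitin ligases and related enzymes that act on Klf proteins (Vhl and Usp7 the most abundant, at log2 fold changes of -0.29 and 0.05) and 15 tested cofactors (Sap30 and Sin3b, at 0.07 and 0.18), 0 passed the thresholds, with or without the block.

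Of 8 tested genes that Klf2 is known to raise in T cells, 0 passed the thresholds in either direction by edgeR (1, Ccr7, with the block). With DESeq2 1 gene of the list passed, and in replicates 2 and 3 alone also 1. The median log2 fold change was -0.05. Itgb7, an integrin chain of gut homing, had 317 to 385 FPKM in WT and 222 to 281 in Scd-1-/- libraries (log2 fold change -0.51, adjusted p = 0.277, and -0.51 with an adjusted p of 0.0293 with the block), with no overlap. Ccr7, the chemokine receptor of lymph node entry, had 55.9, 207 and 204 FPKM in WT and 35.8, 51.9 and 51.8 FPKM in Scd-1-/- replicates 1, 2 and 3, so that it was low where Klf2 was high in WT (log2 fold change -1.71, adjusted p = 0.240, past the thresholds with the block, at -1.53, and without WT replicate 1, at -2.11, in 1 of 6 fits with a library left out, -2.11 to -1.44). Other genes of the list had positive values: Cdkn1a, an inhibitor of the cell cycle, had 35.0, 69.7 and 57.3 FPKM in WT and 56.7, 102 and 101 FPKM in Scd-1-/- replicates 1, 2 and 3. It was higher in the knockout library of every replicate number, with a log2 fold change of 0.71 (adjusted p = 0.485, and 0.0112 with the block). S1pr4, another receptor for sphingosine 1-phosphate, had a log2 fold change of 0.23 (adjusted p = 0.839). Both were named after their values were seen.

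S1pr1, the receptor of exit into blood, named after its values were seen, had 66.9, 25.6 and 26.4 FPKM in WT and 52.7, 24.6 and 24.5 FPKM in Scd-1-/- replicates 1, 2 and 3. It shared with Klf2 the high replicate 1, and it did not have the higher level that Klf2 showed in knockout replicates 2 and 3. Its log2 fold change in replicates 2 and 3 alone was -0.05, against 0.89 for Klf2. Of 5 tested genes that Klf2 is known to restrain, 0 passed the thresholds, and 1, Prdm1, did without WT replicate 1 and in replicates 2 and 3 alone. Cxcr3, a receptor of effector cells, had 112, 73.7 and 53.9 FPKM in WT and 59.4, 36.0 and 36.3 FPKM in Scd-1-/- libraries (log2 fold change -0.85, adjusted p = 0.434, and -0.82 with an adjusted p of 0.0174 with the block), and Tbx21, the effector factor T-bet, had a log2 fold change of 0.04. Prdm1, the effector factor Blimp-1, had 3.72, 2.21 and 2.08 FPKM in WT and 4.04, 5.77 and 4.75 FPKM in Scd-1-/- replicates 1, 2 and 3, with no overlap. Its log2 fold change was 0.87 (adjusted p = 0.329, and 0.0769 with the block), 1.33 in replicates 2 and 3 alone (adjusted p = 0.00162) and 0.71 to 1.21 with 1 library left out, past the thresholds in 1 of these 6 fits. Cd69, an antagonist of the receptor S1pr1, had a log2 fold change of 0.69 (adjusted p = 0.516), and both genes were named after their values were seen.

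**Figure D5:**
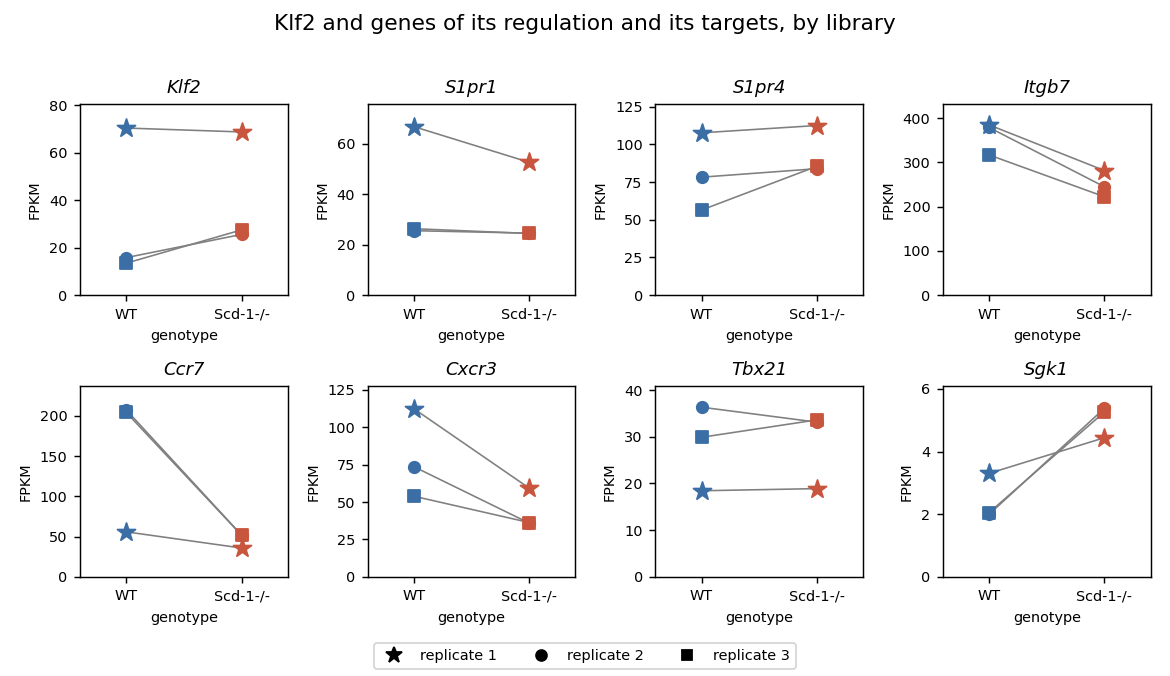
FPKM of Klf2 and of 7 genes from the lists of its targets (S1pr1, S1pr4, Itgb7, Ccr7, Cxcr3, Tbx21) and upstream regulators (Sgk1), WT on the left and Scd-1-/- on the right of each panel, with a line joining libraries of the same replicate number (star 1, circle 2, square 3). Itgb7, Ccr7 and Cxcr3 are lower in each knockout library of a pair, while Klf2 is level in pair 1 and higher in pairs 2 and 3. S1pr1, S1pr4 and Sgk1 were chosen for this plot after their values were seen.

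In the TGF-beta pathway, in which Klf10 and Klf11 are early target genes, 0 of 10 tested genes passed the thresholds. Tgfb1, the ligand, and Tgfbr2, its receptor, had log2 fold changes of 0.01 and 0.17. Smad3, a signal transducer of the pathway, had 11.8, 10.9 and 10.6 FPKM in WT and 8.52, 6.88 and 6.05 FPKM in Scd-1-/- replicates 1, 2 and 3, with no overlap (log2 fold change -0.61, adjusted p = 0.272, and 0.0296 with the block). The groups did not overlap either for Tgfbr3 (-0.94, adjusted p = 0.277, and 0.0768 with the block) and Smad4 (-0.41, adjusted p = 0.497, and 0.0959 with the block), and these 3 genes were named after their values were seen. Tgfbr2 was highest in replicate 1 of both genotypes (55.0 and 55.5 FPKM, against 30.0 to 39.6), and so was the inhibitor Smad7 (6.41 and 6.87, against 1.77 to 2.27), which was named after its values were seen. Itgae, the integrin CD103 that TGF-beta induces in CD8+ T cells, was under the FPKM minimum at 1.08 to 1.88 in WT and 0.110 to 0.336 in Scd-1-/- libraries, and passed the thresholds in the fit to all genes (log2 fold change -2.51, standard error 0.46, adjusted p = 0.0485), and in 4 of the 6 fits with 1 library left out, the exceptions being replicate 2 of either genotype. Of 6 tested genes that other members act on, 0 passed the thresholds and 2, Ccl5 and Lgals3, did upward with the block or without WT replicate 1. Without Scd-1-/- replicate 1 another pair, Eng and Acvrl1, receptors of TGF-beta family ligands, passed downward, with DESeq2 1 did, Eng, and in replicates 2 and 3 alone all 4 did. Eng had 2.07, 4.75 and 4.51 FPKM in WT and 1.77, 0.592 and 0.604 FPKM in Scd-1-/- replicates 1, 2 and 3 (log2 fold change -1.90, adjusted p = 0.248). Lgals3, Eng and Acvrl1 were named after their values were seen. Bsg, a glycoprotein of activated cells, had a log2 fold change of -0.22.

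Among immediate early genes, which stimulation induces together with several Klf genes, 0 of 15 tested genes passed the thresholds. Replicate 1 of both genotypes was the highest library in 5 of 15, near the share of all tested genes (30.2%). The median excess of replicate 1 over the list was 0.14 in log2 CPM. Jund and Junb, the most abundant, had log2 fold changes of 0.22 and -0.21, and Junb was lowest in replicate 1 of both genotypes (80.3 and 86.0 FPKM, against 128 to 164). Nr4a1 (24.7 and 26.6 FPKM in replicate 1, against 3.73 to 5.39) and Dusp2 (90.7 and 114, against 18.6 to 32.5), both named after their values were seen, had the pattern of Klf11. Of 12 tested genes of naive and memory T cells, a list that shares Ccr7, S1pr1 and Il7r with the Klf2 targets, 3 passed the thresholds downward (5 with the block) and 0 upward, with 9 that did not pass. They were Tcf7 (log2 fold change -3.24, adjusted p = 0.00434), Id3 (-1.83, adjusted p = 0.0898) and Dapl1 (-3.55, adjusted p = 0.0259). Tcf7 and Dapl1 passed in all 6 fits that left out 1 library and Id3 in 1 of 6, without Scd-1-/- replicate 1 (-2.24), so that the count of the list was 2 without WT replicate 2 or 3 or Scd-1-/- replicate 2 or 3. The NK cell, myeloid and B cell markers and the mitochondrial genes (mt-Co1 0.54 and mt-Co3 0.80 as log2 fold changes, not past the thresholds) moved with genotype as well. In the list of RNA quality genes, 4 of 8 tested ones had an adjusted p under 0.05 with the block, upward (4.7% of all tested genes had one). Without Scd-1-/- replicate 1, 1 of that list passed the thresholds. The part of all these genes in the differences above was not tested.

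The genes whose log2 CPM was most like that of Klf2 over the 6 libraries included Fah (Pearson r = 0.998), 2810001G20Rik (0.998), Trib1 (0.996) and Rplp1 (0.995), given as a description over points that share the replicate 1 libraries. Fah, an enzyme of tyrosine breakdown, had 10.4, 6.97 and 6.82 FPKM in WT and 10.1, 7.79 and 8.07 FPKM in Scd-1-/- replicates 1, 2 and 3, a much smaller range than that of Klf2. Trib1, a pseudokinase, had 3.88, 0.758 and 0.594 FPKM in WT and 3.30, 1.32 and 1.21 FPKM in Scd-1-/- libraries. Among the members, r with Klf2 was 0.963 for Klf6, 0.937 for Klf11, 0.923 for Klf10, 0.765 for Klf7 and 0.642 for Klf13.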

How the data were processed

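Reads of the 6 libraries were processed by the authors with FastQC, HISAT2 and StringTie 1.3.0 on GRCm38, per the labels, and deposited as 1 table per library with read counts and FPKM per gene. The deposited FPKM equal the count divided by the library total and by 1 length per gene, without TMM factors. Counts (14034479 to 15866216 per library, which sets the precision) were analysed with edgeR 4.0.16 in R 4.3.3: TMM scaling, quasi-likelihood test of genotype, a minimum mean of 1 FPKM, Benjamini-Hochberg adjustment over all genes fitted, and the thresholds of the study (absolute log2 fold change of at least 1, unadjusted p under 0.001). Every adjusted p in the text comes from this tool unless named otherwise. Log2 CPM had a prior count of 2. Standard errors are the absolute log2 fold change over the square root of F. Alternatives were the replicate block, other filters, median-ratio scaling, DESeq2 1.42.0, limma 3.58.1 on log2 (FPKM + 1) and log2 (FPKM + 0.1), 1 library left out and replicates 2 and 3 alone. Same-numbered libraries deviated together: deviations from the group means correlated at 0.595, 0.306 and 0.470 over 9627 genes for numbers 1, 2 and 3, each above the 0.1 required. Of the unlike numbers, WT 3 with Scd-1-/- 2 correlated at 0.380, above the 0.306 of number 2, and WT 2 with Scd-1-/- 3 at 0.180. Only number 1, whose unlike pairs were at -0.560 to -0.316, is told apart. A pairing within numbers 2 and 3 is not shown by this measure, and the block and the ratios by number take it as labelled. The members, the gene lists and the lists' genes were chosen with earlier results of these data known. The text names all members, Scd1, within each list the genes past the thresholds and the 2 with the highest mean FPKM (cell type markers as sums only, unless at 0), and the 5 genes most like Klf2, and a few genes of these lists are not reported here. The scripts were tested on simulated data. The labels name Trizol extraction and the VAHTS Universal V6 kit, and the study's methods an RNeasy and a stranded TruSeq kit.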

Additional observations from a re-analysis of the deposited data

How the results depend on the processing

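The counts of Klf genes past the thresholds (0 of 6) stayed at 0 under every alternative run, and the replicate block, where Klf2 came to 0.57, Klf6 to 0.25 and Klf13 to -0.39, changed no call of a member. In replicates 2 and 3 alone, 2 libraries a group, the genes with an adjusted p under 0.05 moved from 0 to 1, Klf2 (12.6% of all tested genes). They were 2, with Klf13, where no FPKM minimum was set (13.9%). Those whose groups do not overlap moved from 0 to 4 of 6, against 59.8% of all tested genes. In these fits the log2 fold change turned to 0.28 for Klf3, 0.029 for Klf4, -0.16 for Klf7 and 0.15 for Klf11. Leaving out 1 library gave 0 to 3 of 6 genes whose groups do not overlap, against 19.4% to 38% of all tested genes (3 without WT replicate 1, against 38%). It gave 0 with an adjusted p under 0.05 and 0 past the thresholds, and log2 fold changes from -0.32 to 1.51 for Klf2, -0.40 to 0.41 for Klf3, -1.19 to 0.55 for Klf4, 0.11 to 0.46 for Klf6, -0.36 to 0.65 for Klf7, -0.33 to 0.55 for Klf10, -1.19 to 1.19 for Klf11 and -0.68 to -0.09 for Klf13. In these sets the lowest value came without Scd-1-/- replicate 1 and the highest without WT replicate 1, except the lowest of Klf3 (without WT replicate 2) and the highest of Klf7 (without Scd-1-/- replicate 3). Of 64 member fold changes under the other alternatives, 60 kept their direction and 4 turned, all 4 in replicates 2 and 3 alone. The 5 genes with a replicate number effect were 5 with no FPKM minimum, where Klf7 took the place of Klf6, and 4 with a minimum of 5 FPKM or median-ratio scaling. A minimum of 5 FPKM left no value for Klf7 and Klf11. With 3 libraries a group, the 95% interval without the block includes an absolute log2 fold change of 1 for 4 of the 6 tested genes, so differences of that size are not excluded there.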
